A study of Gallus gallus with 3 samples.

Results

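The immediate early genes EGR1, FOS, JUN, ATF3, DUSP1, IER2 and MYC were examined in chick endoderm, the embryonic layer from which the gut epithelium forms. Members were all probe sets that the platform annotation assigns to 1 of these 7 symbols. The rule found 7 probe sets among 38535 on the array, 2 for EGR1 and 1 each for FOS, JUN, ATF3, DUSP1 and MYC. Thus 6 of the 7 genes were measured, of 13008 named genes on the array. IER2, a nuclear protein induced by growth factors, had no probe set under that symbol and was not analysed here.

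Immediate early genes are transcribed within minutes of a stimulus, without new protein synthesis, because the factors that switch them on are already in the cell. Growth factors act through MAP kinases on serum response factor and its ternary complex partners, and stress acts through related kinases. The products are mostly transcription factors that drive a second wave of genes, together with phosphatases and RNA-binding proteins that end the response. In embryos several of them, EGR1 among them, respond to FGF through ERK. Cutting, enzyme treatment and dissociation of tissue are also known to induce them.

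RNA was taken from 3 chick tissues, each 1 pool gathered every 4 hours over 1 day and measured on 1 Affymetrix Chicken Genome Array, so n = 1 per group. No p-value can be had and no value was measured in a second pool. Early Endoderm was the endoderm layer at stages HH4 to HH5 (Hamburger-Hamilton), pooled from 500 embryos and lifted off the mesenchyme with a needle. Foregut Endoderm came from stages HH10 to HH11, in front of the anterior intestinal portal. Mid/hindgut Endoderm came from stages HH8 to HH10, behind the presumptive small intestine. Both later tissues were cut out with their mesenchyme and freed from it after 30 minutes in 0.03% collagenase type I at room temperature, and early endoderm was not treated in this way. All came from fertilised eggs incubated at 38°C, and the labels name no genotype, strain or added factor. Stage, way of isolation, collagenase and array changed together between early endoderm and the later tissues. These cannot be told apart in any comparison against early endoderm. In such bulk samples, a change in the share of a cell type and a change in RNA per cell cannot be told apart either.

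The values are MAS5 signals in array units, scaled so that the arrays have the same trimmed mean. A floor of 22.1 units was set at the 40th percentile of chicken probe sets, so a fold against a signal below it is only a bound and is given with "at least". The only error that 1 array per tissue allows is the spread between 2 probe sets of 1 gene. Over 4134 genes the standard deviation of a probe set's log2 difference was 0.43 for foregut against early endoderm, 0.31 for mid/hindgut against early endoderm and 0.36 for foregut against mid/hindgut. It covers probe noise above the floor, not variation between pools.

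EGR1 is a zinc finger transcription factor and a direct target of ERK signalling. Its first probe set (Entrez gene 373931), used for the gene, had a scaled signal of 9.65 in early endoderm, against 353 in foregut and 329.9 in mid/hindgut. The early array lay below the floor and both later arrays far above it. The differences were at least 16.0-fold for foregut and at least 14.9-fold for mid/hindgut. The second probe set, whose suffix marks probes shared between transcripts, read 6.45, 91.3 and 76.8 in the same order. It showed the same order of tissues with smaller bounds, at least 4.12-fold and at least 3.47-fold. Foregut and mid/hindgut differed by 0.10 in log2, less than the spread between probe sets.

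DUSP1 encodes a dual-specificity phosphatase that removes phosphate from JNK, p38 and ERK in the nucleus and is induced by the same kinases it turns off. Its probe set (Entrez gene 374192) had a scaled signal of 125 in early endoderm, against 919 in foregut and 542 in mid/hindgut. All 3 arrays were above the floor, early endoderm was lowest and foregut highest. Foregut was 7.35-fold and mid/hindgut 4.34-fold above early endoderm, differences of 6.71 and 6.83 times the spread between probe sets. Foregut exceeded mid/hindgut by 1.69-fold, or 0.76 in log2, which is 2.11 times that spread and under the 2-fold threshold.

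JUN is the basic leucine zipper protein at the core of AP-1, where it pairs with FOS proteins, with ATF proteins or with itself. The JUN probe set (Entrez gene 424673) read 280.2 in early endoderm, against 705 in foregut and 625 in mid/hindgut. Early endoderm was lowest, by 2.52-fold against foregut and 2.23-fold against mid/hindgut. The later tissues were 0.17 apart in log2, 0.48 times the spread between probe sets.

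ATF3, a stress-induced factor of the same leucine zipper class that can pair with JUN, is Entrez gene 421369. Its probe set read 66.5 in early endoderm, against 136 in foregut and 204 in mid/hindgut. Mid/hindgut was highest, 3.07-fold above early endoderm. The other members that were lowest in early endoderm read highest in foregut, EGR1 and JUN by less than the spread between probe sets. Foregut was 2.05-fold above early endoderm, a log2 difference of 1.03 that lies at the 2-fold threshold. It was 0.73 without scaling and 0.97 with scaling on ribosomal protein genes, both within 2-fold. Foregut minus mid/hindgut was −0.58 in log2, and −0.02 with scaling on hybridisation controls.

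FOS, the usual partner of JUN in AP-1 and a classical serum response target, was below the floor in every tissue. Its probe set (Entrez gene 396512) read 17.9 in early endoderm, against 15.9 in foregut and 18.7 in mid/hindgut, and no fold is given. A signal below the floor does not show that the transcript was absent.

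MYC, a helix-loop-helix transcription factor of growth and ribosome production, went the other way. Its probe set (Entrez gene 420332) had a scaled signal of 969 in early endoderm, against 298 in foregut and 658 in mid/hindgut. Early endoderm was highest, mid/hindgut intermediate and foregut lowest. MYC was 3.26-fold lower in foregut than in early endoderm and 2.21-fold lower in foregut than in mid/hindgut. Mid/hindgut was 1.47-fold below early endoderm, within 2-fold, with a log2 difference of −0.56 that is 1.81 times the spread.

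**Figure D1:**
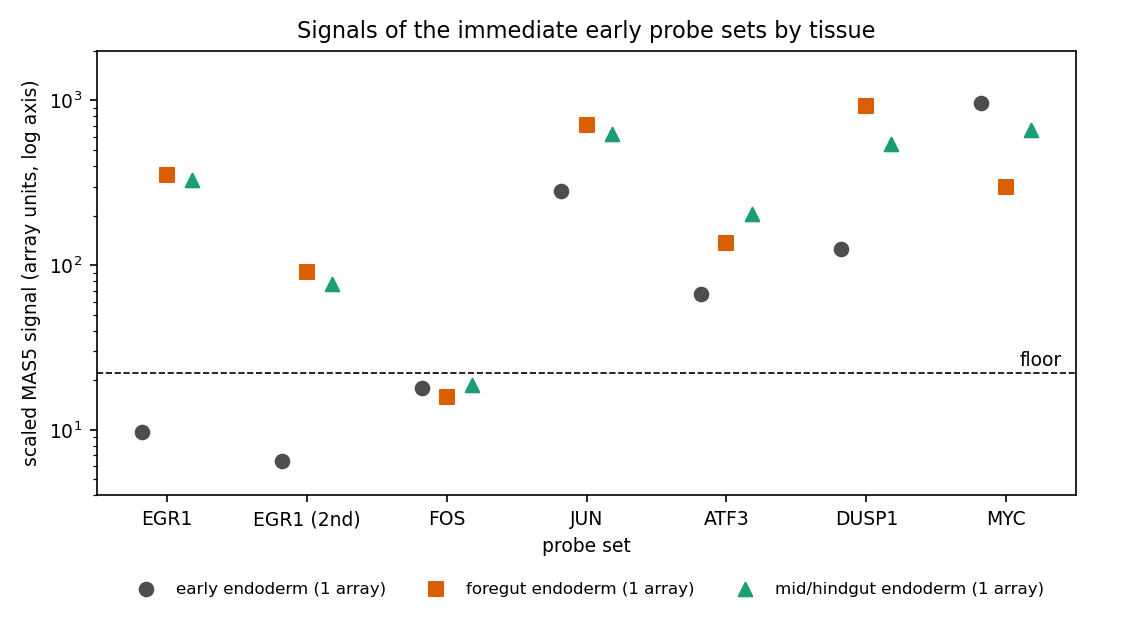
Scaled MAS5 signal in array units on a log axis for each of the 7 member probe sets, with 1 point per tissue and array and the floor of 22.1 as a dashed line. EGR1, JUN, ATF3 and DUSP1 were lowest in early endoderm, MYC was highest there at 969, and FOS lay below the floor in each tissue.

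The comparison of foregut with early endoderm sets an anterior, later tissue against the endoderm layer as a whole, so region and stage change together. Of the 5 members above the floor, EGR1, DUSP1, JUN and ATF3 exceeded early endoderm by 2-fold or more and MYC was below it by as much. Of all 10800 genes above the floor in this comparison, 10.6% were higher and 6.49% lower by that margin. At 3-fold the members were EGR1, DUSP1 and MYC, against 7.13% of genes in either direction. The median log2 difference was 1.33 over the members and 0.08 over all genes. EGR1 exceeded the difference of 99.7% of genes, DUSP1 99.1%, JUN 93.8% and ATF3 90.0%, whereas MYC exceeded that of 2.26%.

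The comparison of mid/hindgut with early endoderm sets a posterior, later tissue against the same early pool. The same 4 genes were at least 2-fold higher and none of the 5 was at least 2-fold lower, against 8.12% higher and 5.13% lower over 10745 genes. At 3-fold the members were EGR1, DUSP1 and ATF3, against 6.13% of genes in either direction. The median log2 difference was 1.62 over the members and 0.03 over all genes. EGR1 exceeded the difference of 99.5% of genes, DUSP1 97.9%, ATF3 96.3% and JUN 93.5%, and MYC that of 12.2%. Without scaling JUN was at 0.89 in log2, within 2-fold. Both comparisons use the same early array, so a fault of that array would enter both.

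The comparison of foregut with mid/hindgut sets front against back in tissues that were both treated with collagenase, though their stages also differ. MYC, lower in foregut, was the only one of the 5 members at least 2-fold apart, while of 10906 genes 6.37% were higher in foregut by that margin and 5.74% were lower. EGR1 and JUN differed by less than the spread between probe sets, at 0.10 and 0.17 in log2. No member was 3-fold apart, against 4.48% of genes. The median log2 difference was 0.10 over the members and 0.02 over all genes. Scaled on hybridisation controls, MYC was at −0.58 in log2, within 2-fold, and DUSP1 at 1.32, at least 2-fold higher in foregut, while the median of all genes shifted to 0.56.

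**Figure D2:**
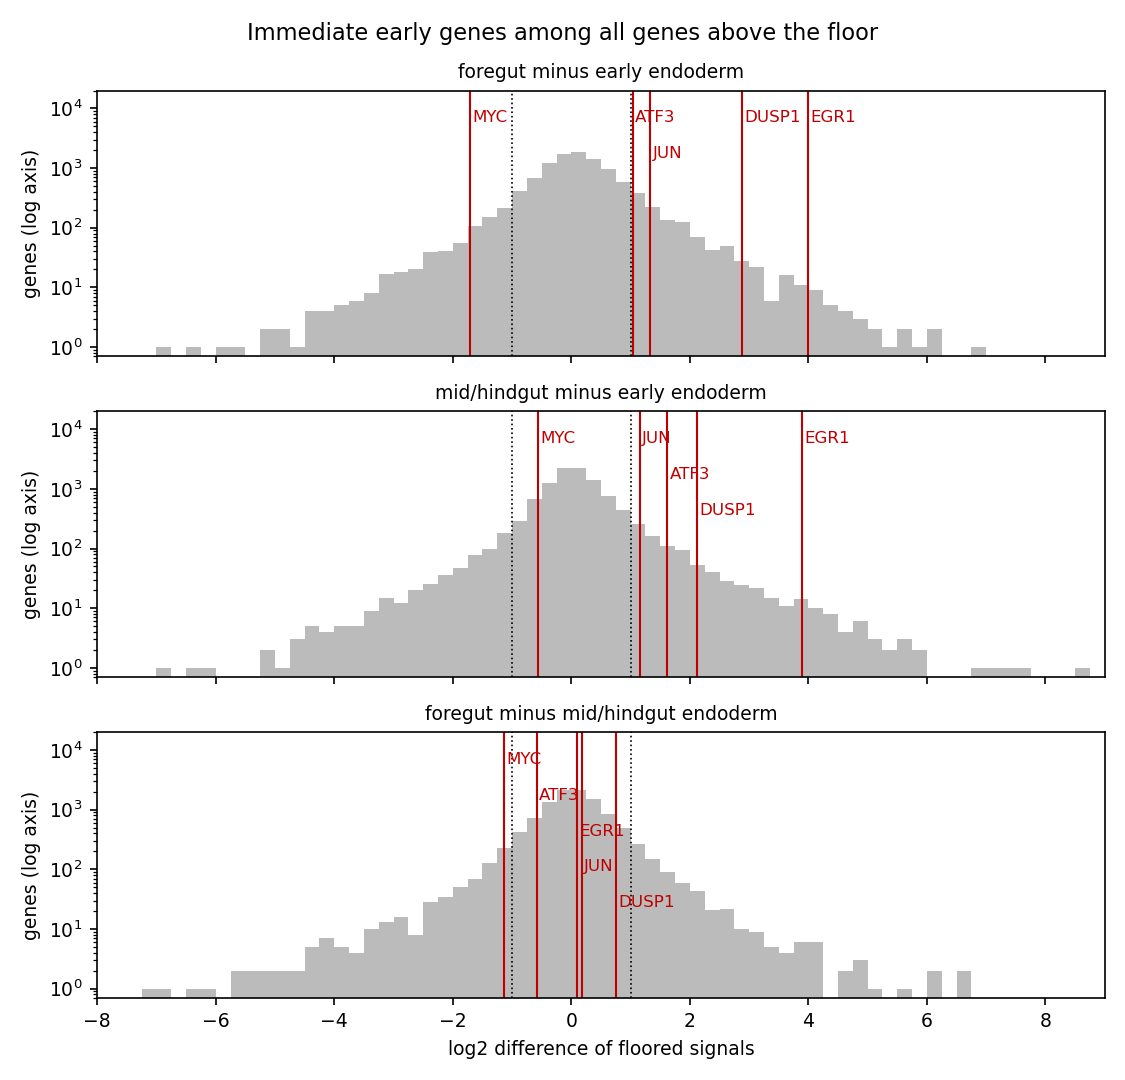
Number of genes on a log axis by log2 difference of floored signals, in bins of 0.25, with members as red lines and 2-fold as dotted lines. Against early endoderm EGR1, whose value there is a lower bound, lies at 4.00 for foregut and 3.90 for mid/hindgut, and between the later tissues MYC alone passes 2-fold, at −1.14.

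Differences against early endoderm depend on how arrays are scaled. Without scaling the median of all genes moved to −0.21 for foregut and −0.22 for mid/hindgut, and with scaling on hybridisation controls to 0.52 for foregut and −0.05 for mid/hindgut. The share of genes higher and lower in foregut than early endoderm was then 6.83% and 11.1% without scaling, and 22.8% and 3.33% on hybridisation controls, where foregut against mid/hindgut had 20.4% and 2.29%. Scaling an array moves all of its genes together, so a difference taken relative to the median gene cancels it by construction and says nothing of stability. Taken so, over the main setting and 11 alternatives, the foregut difference ranged from 2.77 to 2.88 for DUSP1, 1.24 to 1.33 for JUN, 0.94 to 1.03 for ATF3, which was 0.96 in the main setting, and −1.80 to −1.70 for MYC. In mid/hindgut the ranges were 2.07 to 2.12 for DUSP1, 1.56 to 1.62 for ATF3, 1.11 to 1.16 for JUN and −0.61 to −0.55 for MYC. EGR1 ranged from 2.49 to 5.11 in foregut and from 2.43 to 5.06 in mid/hindgut, since its early signal lies below the main floor and the bound moves with the floor. The upper ends came with the floor at the 20th percentile, 7.35 units. The early signal of EGR1 exceeded that floor, so those values are not bounds.

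**Figure D3:**
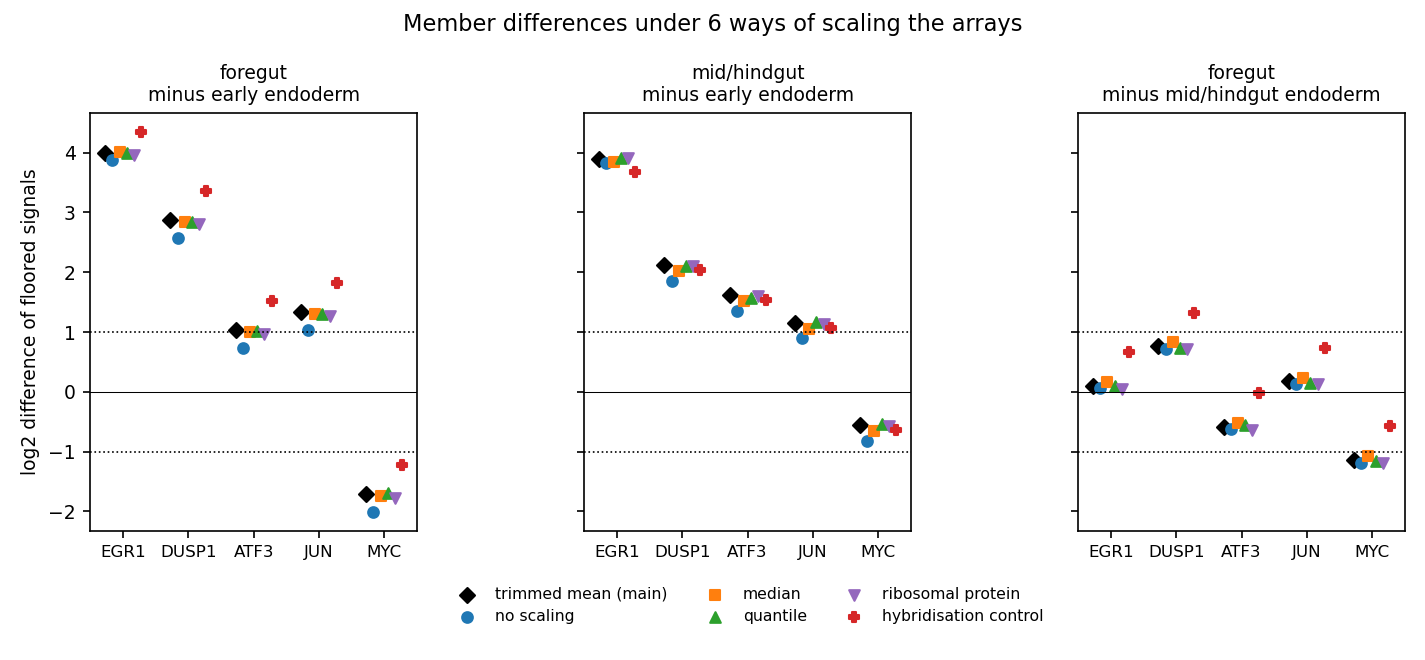
Log2 difference of floored signals for the 5 members above the floor under 6 ways of scaling the arrays, with 2-fold as dotted lines. EGR1, DUSP1 and JUN stay at least 2-fold higher in foregut under each, ATF3 in foregut crosses the line between 0.73 and 1.51, and scaling on hybridisation controls moves both foregut panels upwards.

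A total of 6 related gene lists were written around the members, with earlier results of these data known: EGR proteins, AP-1 proteins, ATF and CREB proteins, the MYC and MAX network, MAP kinase phosphatases and other immediate early genes. Without the members they hold 66 genes on the array. Of 54 above the floor for foregut against early endoderm, 10 were 2-fold or more higher (18.5%, against 10.6% of all genes) and 3 lower (5.56%, against 6.49%), with a median log2 difference of 0.26. Of 59 for mid/hindgut against early endoderm, 11 were at least 2-fold higher (18.6%, against 8.12% of all genes) and 1 lower (1.69%, against 5.13%), with a median of 0.39. Most of both higher counts lay in 1 list. Of the 10 in foregut, 8 were among 26 other immediate early genes and 2 among 9 of the MYC and MAX network. Of the 11 in mid/hindgut, 9 were among 29 other immediate early genes, 1 among 4 AP-1 and 1 among 7 ATF and CREB genes. The remaining lists had none in either case. Between the later tissues 2 of 59 were higher and 5 lower in foregut, where 6.37% and 5.74% of all genes were. With scaling on hybridisation controls the count higher in foregut than early endoderm was 18, with 22.8% of all genes higher.

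The list of other immediate early genes had 8 of 26 higher in foregut, against 10.6% of all genes, and 9 of 29 higher in mid/hindgut, against 8.12%. SIK1, a salt-inducible kinase, read 122 in early endoderm, against 605 in foregut and 463 in mid/hindgut. CCN2, a secreted matrix protein that serum response factor and YAP induce, read 252, 949.6 and 1125 in the same order. Early endoderm was lowest for both, with SIK1 4.98-fold and CCN2 3.77-fold higher in foregut. PLK2, a polo-like kinase, was 3.59-fold higher in foregut and 3.61-fold in mid/hindgut, and NFKBIA, the inhibitor that ends NF-kappaB signalling, 3.52-fold and 2.69-fold. CYR61, the matrix protein now called CCN1, was 2.56-fold and 2.77-fold higher, and the serum kinase gene SGK1 2.99-fold and 2.60-fold. ZFP36L2, which promotes decay of AU-rich messages, was the 1 gene of this list at least 2-fold lower in foregut, at 678 against 1372, but −0.54 in log2, under 2-fold, when hybridisation controls set the scale. In mid/hindgut the growth factor gene HBEGF was at least 2.27-fold and the prostaglandin synthase gene PTGS2 at least 2.55-fold above early endoderm, where both lay below the floor. Both fell within 2-fold under an alternative, HBEGF at 0.97 in log2 on hybridisation controls and PTGS2 at 0.68 when both its probe sets were combined by their median. The higher counts also hold BTG2 and KLF2 in foregut and PER2 in mid/hindgut. These fell to 0.65, 0.57 and 0.17 in log2 under the alternative that moved each most.

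The MAP kinase phosphatases went in more than 1 direction. DUSP5, an ERK-specific nuclear phosphatase, read 3085 in early endoderm, against 317 in foregut and 326 in mid/hindgut. It was 9.74-fold lower in foregut and 9.45-fold lower in mid/hindgut, opposite to DUSP1. DUSP6, the cytoplasmic ERK phosphatase that marks FGF signalling, read 820.5, 1324 and 706, within 2-fold in every comparison. Among the 9 phosphatases above the floor, DUSP1 was the 1 (11.1%) that was 2-fold or more above early endoderm in either later tissue. Over all genes 10.6% were higher in foregut and 8.12% in mid/hindgut, near the share in this list. DUSP5 was the 1 lower by that margin, against 6.49% and 5.13% of all genes. With 9 genes these counts say little.

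For foregut against early endoderm, 3 AP-1, 7 ATF and CREB and 1 EGR list relative of the members were above the floor. Of these, 0 were 2-fold or more apart, against 17.1% of all genes. For mid/hindgut 1 of 4, 1 of 7 and 0 of 2 were higher, against 8.12% of all genes. With so few genes these counts cannot be set apart from the shares over all genes. Of the EGR list, EGR4 read 10.4, 12.5 and 32.0 and the EGR corepressor NAB1 read 21.0, 33.6 and 42.5 in early endoderm, foregut and mid/hindgut. Of the AP-1 list, 5 of 9 genes were above the floor on some array, and the FOS relative FOSL2 was not. BATF3, an AP-1 partner of JUN, was at 93.1, 171 and 434 and was 4.66-fold higher in mid/hindgut than in early endoderm. MAFF and MAFK, small MAF proteins, differed by less than 2-fold. CEBPB, of the ATF and CREB list, was at 29.8, 42.3 and 86.8, 2.92-fold higher in mid/hindgut but within 2-fold, at 0.52 in log2, when the floor was raised to the 60th percentile. ATF4, the activator of the amino acid response, read 2866, 2543 and 3024, within 2-fold.

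MYCN, the MYC relative of embryonic tissues, read 3828 in early endoderm, against 2714 in foregut and 4049 in mid/hindgut, with differences of −0.50, 0.08 and −0.58 in log2 over the 3 comparisons. All were within 2-fold. Among proteins that compete for the same partner or sites, MXD3 was at 24.9, 73.3 and 37.3 and MXD1 at 82.9, 168 and 82.5. Foregut was highest for both, 2.95-fold for MXD3 and 2.02-fold for MXD1 against early endoderm. MXD3 was at 0.28 in log2 when the floor was raised to the 60th percentile, and MXD1 at 0 over the median of its probe sets, so neither call held under every setting. MGA, a MAX partner, was 3.49-fold lower in foregut on its brightest of 8 probe sets but at −0.48 in log2 over their median. Of 15 measured MYC target genes, none was at least 2-fold apart between foregut and early endoderm, against 17.1% of all genes. Their median log2 difference was −0.07, and with so few genes the count says little. LDHA, lactate dehydrogenase, at 2245, 3303.5 and 622, was the 1 target at least 2-fold lower in mid/hindgut than in early endoderm. Over all genes 5.13% were lower there. The nucleolar genes NCL, at 6315, 5944 and 6865, and NOP58, at 2116, 2285 and 2259, were within 2-fold in each comparison.

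Upstream of the members, SRF read 300.1 in early endoderm, against 363 in foregut and 199 in mid/hindgut. Of the 20 measured MAP kinases and serum response factor partners, 4 exceeded early endoderm by 2-fold or more in foregut and none was below it by as much, against 10.6% and 6.49% of all genes. These were MAPK13, a p38 kinase, RPS6KA2, a ribosomal S6 kinase, MAP2K3, an activator of p38, and the ternary complex factor ELK3. MAPK13 read 22.6, 150.3 and 32.6, with its early signal just above the floor, and ELK3 read 526, 1241 and 1032. ELK3 was at 0.93 in log2 without scaling, within 2-fold. MAP2K3 was at 1.26 in log2 on its brightest probe set and at 0.13 over the median of 5. RPS6KA2 was at least 3.56-fold higher in foregut, 0.38 in log2 when the floor was raised to the 60th percentile, and at least 5.87-fold higher in mid/hindgut, the 1 gene of this list called there.

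Heat shock genes encode chaperones that are induced by heat and other stress. Of 14 above the floor, foregut had 1 and mid/hindgut 2 that exceeded early endoderm by 2-fold or more, and none was below it by as much. All genes gave 10.6% and 8.12% higher, near the shares in this list. The list medians were −0.19 and 0.19 in log2. HSP90AA1 was at −0.61 in log2 in foregut against early endoderm on its brighter probe set, and at −1.15 over the median of both. HSPA8, the constitutive heat shock protein, read 11433 in early endoderm, against 7406 in foregut and 8877 in mid/hindgut. HSPB1, a small heat shock protein, read 53.9, 101 and 141, and HSPH1, a co-chaperone, 179, 160.4 and 444. HSPH1 was 2.48-fold higher in mid/hindgut than in early endoderm on its brighter probe set and at 0.66 in log2 over the median of both. HSPA2 was the 1 gene higher in foregut, at 5697 against 2543, and was at 0.86 in log2 without scaling.

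**Figure D4:**
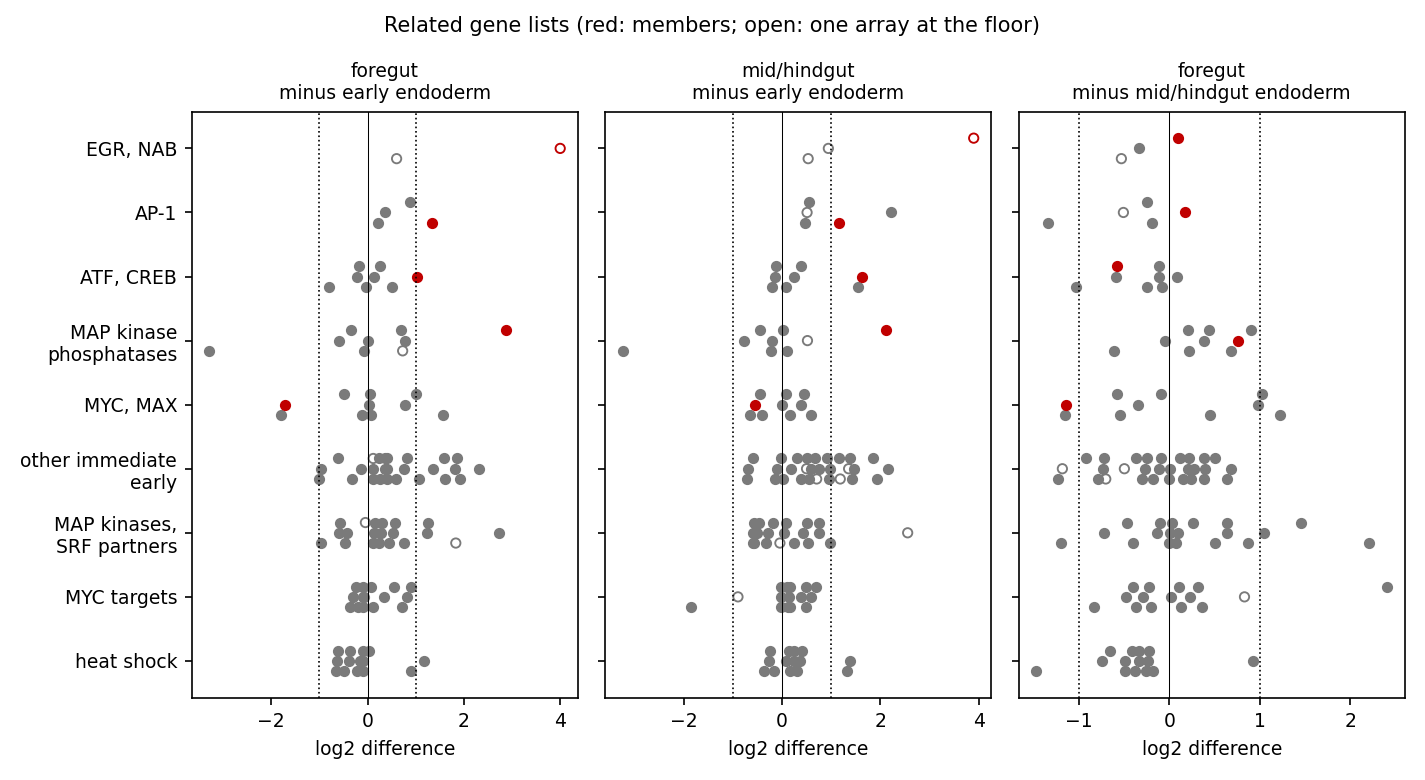
Log2 difference of floored signals for each gene of 9 lists in the 3 comparisons, 1 point per gene above the floor, with members in red, open points where 1 array is at the floor, and 2-fold as dotted lines. EGR1 and DUSP1 are the highest points of their lists against early endoderm, BATF3 lies above JUN in mid/hindgut, and DUSP5 lies at −3.28 and −3.24.

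Genes most like each member were taken as the 3 with the smallest distance in the 2 log2 differences against early endoderm, among genes with the same arrays at the floor and a similar mean level. With 3 arrays this describes a pattern of at most 3 values. For EGR1, out of 42 candidates, they were UPP1, a uridine phosphorylase, at 12.7, 360.1 and 341, GJA5, a gap junction protein known from arterial endothelium, at 16.1, 279 and 310.0, and CLDN5, a claudin of endothelial tight junctions, at 9.45, 312 and 436. For DUSP1 they were PLXNC1, PCDHGA2 and PTPRM, for JUN RAP1A, MAN1A1 and NLRP1L, for ATF3 SULF2, NRSN1 and CDA, and for MYC SPOPL, TAF1D and PARD3B. The candidates for these 4 members numbered between 3010 and 3228, so close matches there are common. By the rule, the 42 candidates for EGR1 all lay below the floor in early endoderm and above it in both later tissues. Their early values were set to the floor, so only the foregut and mid/hindgut levels were compared.

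Neighbouring genes on the chromosome, by gene order in the RefSeq table of the GRCg7b assembly, were within 2-fold against early endoderm where measured, except FAM84B. REEP2, next to EGR1, read 22.3, 25.6 and 26.2 in early endoderm, foregut and mid/hindgut. ERGIC1, next to DUSP1, read 461, 612 and 435, and HOOK1, next to JUN, 242, 302 and 278. FAM84B, next to MYC, read 560.0, 404 and 241 and was 2.33-fold lower in mid/hindgut than in early endoderm.

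Endoderm markers were found in each tissue, with a summed signal of 26542, 14861 and 18122 in the order early endoderm, foregut, mid/hindgut. The largest parts of the early sum were SOX17, at 9773, 878 and 4947, and CXCR4, at 6944, 1277 and 1102. EPCAM went the other way, at 5356.5, 9297 and 8896. On the early array 7 of 9 were above the floor, on the foregut array 8 and on the mid/hindgut array 7, among them SOX17, FOXA2, HHEX and EPCAM, while GATA4 was below the floor on all 3. In foregut 3 of 8 were at least 2-fold below early endoderm, against 6.49% of all genes. These were SOX17 by 11.1-fold, GATA6 by 8.17-fold and CXCR4 by 5.44-fold, and CDH1 was 2.67-fold above early endoderm. In mid/hindgut 2 of 7 were lower by that margin, against 5.13% of all genes. These were CXCR4 by 6.30-fold and GATA6 by 2.71-fold, and CDH1 was 2.44-fold above early endoderm. Summed markers of endothelium, blood and cardiac muscle were higher in both later tissues, and those of paraxial mesoderm and neural crest lower in both. The sums for gut mesenchyme and neural ectoderm were higher in foregut and lower in mid/hindgut. These sums follow the brightest genes, and single markers did not all share their direction. Of 7 neural crest markers compared for foregut, 4 were at least 2-fold above early endoderm and 2 below. All genes gave 10.6% and 6.49%, and the list median was 1.01 in log2. Of 9 cardiac muscle markers for mid/hindgut, 1 was above and 3 below by that margin, against 8.12% and 5.13% of all genes. Their median was 0.003 in log2. The 15 endothelial markers had a summed signal of 470 in early endoderm, against 8730 in foregut and 11467 in mid/hindgut, with 7, 14 and 14 above the floor, and CDH5, the endothelial cadherin, was below the floor in early endoderm. Of 14 compared, 12 in foregut and 13 in mid/hindgut were at least 2-fold above early endoderm and 0 below. All genes gave 10.6% and 8.12% higher. The list medians were 3.04 and 3.05 in log2. The 7 blood markers summed to 227, 1487 and 3205, with 5, 6 and 5 above the floor, and CA2, carbonic anhydrase, made up 943 of the foregut sum. HBZ, a globin gene, read 61.9, 297 and 1536. Of 6 blood markers compared, 4 in foregut and 5 in mid/hindgut were at least 2-fold above early endoderm and 0 below. All genes gave 10.6% and 8.12% higher. The 18 gut mesenchyme markers summed to 2894, 4183 and 1365, with 10, 13 and 13 above the floor. FOXF1, HAND1 and ACTA2 were below it on every array. COL1A2 was the largest part of the early sum, at 1957, 1011 and 312, while POSTN read 15.0, 359 and 220. Of 15 compared for foregut, 8 were at least 2-fold above early endoderm and 1 below, against 10.6% and 6.49% of all genes. Of 14 for mid/hindgut, 5 were above and 4 below by that margin, against 8.12% and 5.13%. The 10 paraxial mesoderm markers summed to 1387, 202 and 713, with 8, 3 and 7 above the floor. The 12 cardiac muscle markers summed to 1134, 2841 and 1307, with 7, 10 and 6 above the floor. NKX2-5, a cardiac transcription factor also known from pharyngeal endoderm, made up 1630.1 of the foregut sum, and MYH7 was 3.65-fold lower in foregut than in early endoderm. The 10 neural ectoderm markers summed to 3563, 4203 and 394, with 5 on each array above the floor. OTX2 made up 2101, 3110 and 29.8 of these sums, and ZIC2 1128, 216 and 103. SOX1, NEUROD1, LHX2 and ZIC1 were below the floor on every array. The 8 neural crest markers summed to 1509, 802 and 933, with 5, 7 and 5 above it. The largest parts of the early sum were SNAI2, at 740, 107 and 108, and MSX1, at 517, 170 and 455. In early endoderm SOX10 and TFAP2A read 27.2 and 25.5, just above the floor, and FOXD3, TFAP2B and SOX9 lay below it. The ratio of the 3' to the 5' probe set of actin was 1.55, 1.69 and 2.19, higher in the later tissues, and that of GAPDH 0.982, 0.972 and 1.01. The part of these markers and of RNA quality in the members' differences was not tested. Ribosomal protein genes, with 49 on the array, had medians of 0.03 and 0.12 in log2 against early endoderm, none of them at least 2-fold apart.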

How the data were processed

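The deposited values are probe set signal intensities on a linear scale from 3 Affymetrix Chicken Genome Arrays, computed with MAS5 per the submitters' processing notes. Its version and settings were not stated in the labels or notes, and detection calls were not used here. Per the labels, 5 µg of total RNA was labelled per array in 1 cycle. From these values, each array was scaled to the mean of the arrays' 2% trimmed means, which were 192, 155 and 159.8 in early endoderm, foregut and mid/hindgut, by factors of 0.881, 1.09 and 1.06. Signals below the 40th percentile of the 37693 chicken probe sets were set to it, and log2 differences were taken. Of 27355 probe sets listed in the platform annotation, 27178 had 1 gene and 177 had several, which were left out. Names were updated through gene identifiers to RefSeq, which held 26863. Each gene was represented by its probe set with the highest mean log2 signal, and members also by every probe set. Calls were made at 2-fold, over genes whose signal passed the floor on at least 1 of the compared arrays.

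No test was run, since each group has 1 array, whose number limits the precision. The calling steps were tested on simulated data, with changes well beyond 2-fold in genes with signals well above the floor. No change near 2-fold and none in genes near or below the floor was simulated. A total of 18 gene lists with 317 symbols were used, 260 of them on the array. Named genes are every member, up to 4 genes per list, direction and comparison, the 3 genes most like each member, and genes singled out after their values were seen, such as those within 2-fold and the chromosome neighbours. Members and lists were chosen with earlier results of these data known. Alternatives were 5 scalings, 4 floors, 2 choices of probe set and a 3-fold threshold, using Python 3.11.15, numpy 2.4.6 and pandas 2.3.3.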

Additional observations from a re-analysis of the deposited data

Results flagged for a closer look

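COL1A1, a fibrillar collagen gene of the gut mesenchyme markers, had opposite differences in the later tissues, at 2.36 in log2 for foregut against early endoderm and −1.68 for mid/hindgut against early endoderm. The difference between them was not tested.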

How the results depend on the processing

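The 3 counts of members stayed within 1.5 times under every alternative but the 3-fold threshold, where foregut against early endoderm had 3 members and foregut against mid/hindgut 0, by construction. Leaving the arrays unscaled took ATF3 out of the foregut call, as did ribosomal protein scaling, and JUN out of the mid/hindgut call, and scaling on hybridisation controls replaced MYC by DUSP1 between the later tissues. For the other genes of the immediate early lists, the same alternatives apart from the 3-fold threshold were added after seeing the data. The count higher in foregut than early endoderm was 18 with hybridisation control scaling, and the count lower was 5 without scaling. The count higher in mid/hindgut was 7 when the floor was raised to the 60th percentile and 19 without a floor. The count lower in mid/hindgut was 2 without scaling and 3 when the floor was lowered to the 20th percentile or dropped. Between foregut and mid/hindgut, the count higher was 1 without scaling, with ribosomal protein scaling or over the median of probe sets, 5 without a floor and 9 with hybridisation control scaling. The count lower was 8 for the 20th percentile floor, 9 without a floor, 3 for the 60th percentile floor, over the median of probe sets or without shared probe sets, and 0 with hybridisation control scaling. The causes were not tested. Of 672 single-gene values under alternatives, 598 moved by less than the spread between probe sets, 74 by more, and none at least 2-fold apart changed sign. A gene with 1 probe set, above every floor, keeps its value under the floor and probe set alternatives by construction. Part of the 598 was therefore fixed in advance, and the count is no measure of stability. No paired analysis was possible because each group has 1 array, and for the same reason no replicate could be left out. Signals below the floor, such as EGR1 in early endoderm and FOS throughout, limit what can be said of low levels.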
